A study of Rattus norvegicus with 21 samples.

Results

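The 8 genes Ldha, Ldhb, Slc16a1, Slc16a3, Hk1, Hk2, Hk3 and Pfkfb3 act on lactate and on the entry of glucose into glycolysis, and several of them belong to the so-called disallowed genes, which most tissues express and pancreatic beta cells keep low. They were taken by gene symbol from the count table, where all 8 were found among 28914 gene names. The RNA came from pancreatic islets, small clusters of endocrine cells, isolated from Lewis rats 4 weeks after an operation. The 11 PX libraries are from rats that had lost 90% of their pancreas (partial pancreatectomy), and the 10 sham libraries from sham-operated rats. All animals were of the same strain, no genetic alteration or drug is named for either group, and the labels' mention of 4 to 5 weeks does not say whether it is an age. The libraries are named by the animal number in their titles, which also carry a value called BG, without a unit, of 101 to 174 in PX and 82 to 104 in sham. The design text names hyperglycemia as what the operation was used to study.

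Beta cells sense glucose by burning it. Pyruvate from glycolysis is passed to the mitochondria, where it drives the ATP production that triggers insulin release. Lactate dehydrogenase A and the monocarboxylate transporter Slc16a1 are kept low in beta cells, so that pyruvate is not diverted to lactate and circulating pyruvate or lactate from muscle does not enter the cell and provoke insulin release. The high-affinity hexokinases, which would phosphorylate glucose even at fasting levels, are likewise low.

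Total counts ran from 4001908 to 13187959 per library and no difference between PX and sham was shown (adjusted p = 0.405 by a permutation test over 9 library measures). Beta cell markers were abundant in every library, with a summed level of 76740 to 228238 CPM in PX and 84457 to 160963 CPM in sham for 9 genes, of which Ins1, Ins2 and Iapp, the genes of insulin and of amylin, make up most. The beta cell score, the mean log2 CPM of these markers, which weights them equally, was lower in PX by 0.25 (10.1 in PX and 10.3 in sham; permutation test, adjusted p = 0.0314), and of the 9 genes 3 fell (Nkx6-1, Pdx1 and Ucn3), 1 rose (Iapp) and 5 did not pass the test. The score of alpha, delta and PP cell markers was 5.49 in PX and 6.15 in sham (adjusted p = 0.00255). CPM are counts scaled to the library total with TMM factors. Other cell types were also present in these bulk islets. The 16 macrophage markers in the table summed to between 234 and 2093 CPM in PX and between 53.4 and 156 CPM in sham, with none of them at 0 in any library, and 15 of the 15 tested were higher in PX. The 13 mesenchymal markers summed to between 865 and 3576 CPM in PX and between 301 and 1155 CPM in sham, and all 13 were higher in PX. Duct markers had a score of 4.48 in PX and 3.11 in sham (adjusted p = 0.00012), and endothelial markers of 5.96 in PX and 5.53 in sham (adjusted p = 0.00054). The 8 neutrophil markers summed to between 1.56 and 10.2 CPM in PX and between 0 and 3.84 CPM in sham, and the 8 lymphocyte markers to between 1.47 and 16.04 CPM in PX and between 0.191 and 2.01 CPM in sham. Acinar markers, from the enzyme-secreting exocrine tissue, averaged 11.8 ± 1.21 log2 CPM in PX and 10.2 ± 1.97 log2 CPM in sham (SD over 11 and 10 libraries; permutation test, adjusted p = 0.0314). PX 65 had the highest acinar score, 14.5, and the lowest TMM factor, 0.359, so its CPM are scaled up the most. In bulk RNA, fewer cells of a type and less RNA per cell cannot be told apart. The libraries PX 58 and PX 62 had the highest macrophage scores, and sham 46 stood apart from the other sham libraries, so values that they carry are also given without them, a choice made after seeing the data.

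Of the 8 genes, 7 were higher in PX than in sham and none was lower, at an adjusted p below 0.05. Of all 13136 genes tested, 14.9% were higher in PX and 16.2% were lower. The median log2 fold change was 1.91 over the 8 genes and -0.04 over all genes tested. The gene that did not pass the test was Ldhb. Without PX 58 and PX 62, 5 of the 7 genes still tested were higher, at 2.02 ± 0.33 for Ldha, 1.48 ± 0.27 for Slc16a1, 2.11 ± 0.28 for Hk2, 4.95 ± 0.46 for Hk3 and 0.999 ± 0.352 for Pfkfb3, against 11.8% of 13096 genes higher and 10.6% lower. Tests were edgeR's quasi-likelihood test with Benjamini-Hochberg adjustment over all genes, and errors of log2 fold changes are standard errors.

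**Figure D1:**
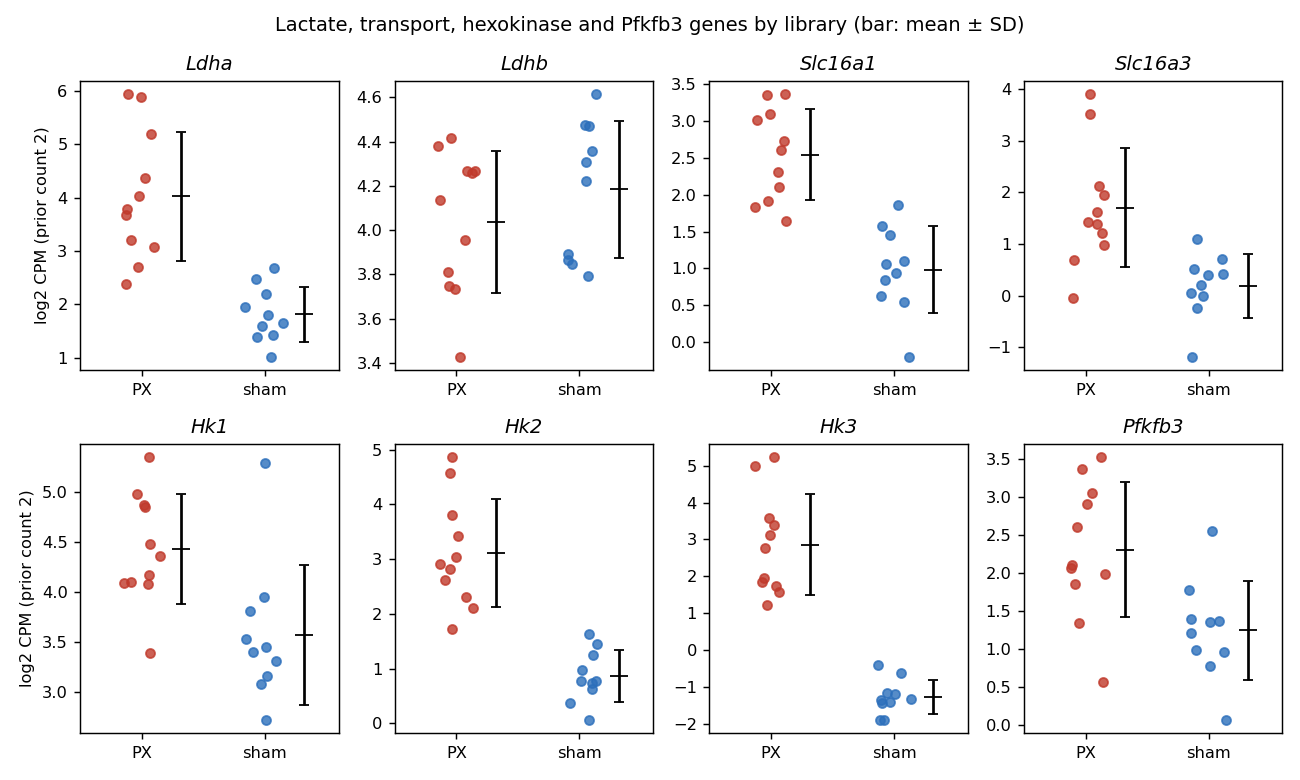
Level of each of the 8 genes in every library, in log2 CPM, with PX at the left of sham in each panel. Points are libraries and bars give the mean ± SD (n = 11 and 10). For Hk2 and Hk3 the 11 PX points lie above all 10 sham points, a separation seen in 1.55% of all genes tested.

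Ldha encodes the lactate dehydrogenase subunit that favours the conversion of pyruvate to lactate. Its level was 4.94 CPM at the lowest, 13.6 at the median and 61.2 at the highest in PX, against 1.75, 3.03 and 6.12 CPM in sham. In 10 of 11 PX libraries it lay above every sham library, and the exception was PX 44. PX 58 and PX 62 were the highest, at 58.6 and 61.2 CPM, followed by PX 65 at 36.4 CPM. The mean was 22.5 ± 20.4 CPM in PX and 3.46 ± 1.39 CPM in sham (SD over 11 and 10 libraries). The log2 fold change was 2.70 ± 0.44, or 6.50-fold (edgeR, adjusted p = 0.000106). Ldha has processed pseudogenes in mammals, and how reads that fit several copies were counted is not given in the sources used here, so its counts carry that uncertainty.

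Ldhb encodes the subunit typical of heart, which favours the conversion of lactate to pyruvate. It was at 10.5 CPM at the lowest, 17.3 at the median and 21.1 at the highest in PX, against 13.6, 19.0 and 24.2 CPM in sham. The groups overlapped over most of their ranges. The log2 fold change was -0.15 ± 0.14 (edgeR, adjusted p = 0.43), so a change was not shown in either direction.

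The 2 subunits form mixed tetramers, and the balance of their transcripts was also computed per library, per kilobase of exon length. This balance is a share of bulk RNA and does not give the make-up of the tetramers. Whether the same cells carried both transcripts was not tested. Ldha made up 45.5 ± 17.6% of the summed Ldha and Ldhb level in PX (range 23.1 to 72.1%) and 13.5 ± 3.53% in sham (range 8.71 to 18.9%). All 11 PX shares lay above all 10 sham shares. How often such shares separate for other pairs of genes was not computed. The lowest PX share was 23.1% in PX 70 (95% exact binomial interval 16.7 to 30.6%) and the highest sham share was 18.9% in sham 46 (14.6 to 23.96%), so these intervals overlap. At the other ends, the share was 72.1% in PX 58 (68.5 to 75.6%) and 8.71% in sham 22 (5.58 to 12.8%). The intervals cover counting error only. The PX share was 39.7 ± 13.2% without PX 58 and PX 62.

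The sequences upstream of the start of transcription are shown for Ldha and Ldhb, of which Ldha was higher in PX and Ldhb was not called, and for Slc16a1 and Pfkfb3, which rose and share a motif with Ldha. They are RefSeq sequences of the GRCr8 build, 250 bases long, 5′ to 3′ on the gene's strand, with each ACGTG or its reverse complement CACGT in capitals.
Ldha, chr1:106507842-106508091, plus strand: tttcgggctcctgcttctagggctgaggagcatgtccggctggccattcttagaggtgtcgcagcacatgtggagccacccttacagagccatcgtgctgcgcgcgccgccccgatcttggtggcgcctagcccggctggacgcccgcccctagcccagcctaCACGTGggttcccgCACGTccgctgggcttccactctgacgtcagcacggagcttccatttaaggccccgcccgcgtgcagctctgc
Slc16a1, chr2:194812410-194812659, plus strand: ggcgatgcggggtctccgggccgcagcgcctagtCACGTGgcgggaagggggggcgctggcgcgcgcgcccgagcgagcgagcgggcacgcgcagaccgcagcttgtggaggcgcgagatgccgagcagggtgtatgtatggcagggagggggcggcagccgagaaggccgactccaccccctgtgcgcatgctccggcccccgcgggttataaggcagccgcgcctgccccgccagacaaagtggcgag
Pfkfb3, chr17:71944683-71944932, plus strand: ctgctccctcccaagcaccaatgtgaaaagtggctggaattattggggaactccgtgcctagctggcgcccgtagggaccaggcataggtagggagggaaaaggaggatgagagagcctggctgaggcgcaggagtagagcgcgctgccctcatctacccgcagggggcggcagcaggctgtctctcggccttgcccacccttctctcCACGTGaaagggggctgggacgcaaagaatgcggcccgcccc
Ldhb, chr4:177177409-177177658, minus strand: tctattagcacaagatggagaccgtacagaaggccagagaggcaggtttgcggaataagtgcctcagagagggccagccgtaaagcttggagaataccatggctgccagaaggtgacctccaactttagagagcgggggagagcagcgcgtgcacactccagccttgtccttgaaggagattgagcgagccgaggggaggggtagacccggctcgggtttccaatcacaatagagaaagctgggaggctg
ACGTG is the core of the hypoxia response element, and CACGTG is the E-box bound by factors such as MYC and USF. A CACGTG holds ACGTG on both strands. The motif was chosen after the Ldha sequence had been seen, so the Ldha window was bound to be counted among those that hold it. All 8 genes were matched, with 9 windows, since Hk1 has 2 starts. Of the 9 windows, 5 held ACGTG on either strand and 3 held CACGTG, against 16.6% and 5.59% of 33469 rat windows of the same length. The CACGTG windows were those of Ldha, Slc16a1 and Pfkfb3, and those of Hk3 and of 1 of the Hk1 starts held ACGTG alone. The windows of Ldhb, Slc16a3, Hk2 and the other Hk1 start held neither. The rat windows were not matched to these for base composition, and the match is a description of the letters in these windows.

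Slc16a1 encodes MCT1, which carries lactate and pyruvate across the plasma membrane in either direction. It was at 2.86, 5.82 and 10.0 CPM in PX (lowest, median and highest), against 0.600, 1.73 and 3.36 CPM in sham. In 9 of 11 PX libraries it lay above every sham library. PX exceeded sham by a log2 fold change of 1.71 ± 0.28, or 3.27-fold (edgeR, adjusted p = 6.8e-05).

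Slc16a3 encodes MCT4, the lactate exporter of strongly glycolytic cells. It was at 0.693, 2.41 and 14.6 CPM in PX, against 0.168, 0.969 and 1.86 CPM in sham. PX 58 and PX 62 stood out again, at 11.1 and 14.6 CPM, and 8 of 11 PX libraries lay above every sham library. PX over sham, the log2 fold change was 2.12 ± 0.47, or 4.34-fold (edgeR, adjusted p = 0.00159). The gene had 345 counts in all PX libraries and 77 in all sham libraries, and it missed the filter on low counts once PX 58, PX 62 or PX 66 was left out. Slc16a3 made up 38.4 ± 12.4% of the summed level of both transporters per kilobase in PX and 38.2 ± 16.1% in sham. Leaving out PX 58 and PX 62 gave 33.6 ± 7.14% in PX.

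Hk2 encodes the high-affinity hexokinase of muscle and fat, which is induced by insulin and in growing cells. It was at 3.03, 7.23 and 28.9 CPM in PX, against 0.777, 1.44 and 2.84 CPM in sham. The groups did not overlap, and all PX values were the higher ones, a separation seen upward in 1.55% of all genes tested. Hk2 had a log2 fold change of 2.69 ± 0.38, or 6.47-fold (edgeR, adjusted p = 1.91e-05).

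Hk3 encodes a hexokinase that is best known from white blood cells. It was at 2.07, 6.54 and 37.4 CPM in PX, against 0, 0.123 and 0.480 CPM in sham. The groups did not overlap, and 1.55% of all genes tested had all PX values above sham. With at most 5 counts in any sham library, Hk3 passed the filter on low counts only through PX. That filter favours such a separation, so the share does not gauge how unusual it is for Hk3. PX 58 and PX 62 were the highest, at 37.4 and 31.6 CPM. The counts added up to 907 in PX and 13 in sham, and no Hk3 read was counted in sham 73 and sham 74, which allows up to 0.351 and 0.510 CPM there (3 counts in each library). Hk3 had a log2 fold change of 5.91 ± 0.70 (edgeR, adjusted p = 2.91e-06), and its size rests on few sham reads.

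Hk1 encodes the hexokinase of brain and red blood cells, present in most tissues. It was at 10.2, 20.2 and 40.7 CPM in PX, against 6.31, 10.5 and 39.0 CPM in sham. The groups overlapped, and 1 of 11 PX libraries lay above every sham library, because sham 46 reached 39.0 CPM while the next sham library had 15.2 CPM. The log2 fold change was 0.77 ± 0.28, or 1.71-fold (edgeR, adjusted p = 0.038). Without sham 46 it was 1.20 ± 0.22 (adjusted p = 0.000186). The call was lost in 12 of 21 fits that left out 1 library (8 sham libraries, 21, 22, 24, 47, 49, 50, 73 and 74, and PX 41, 58, 62 and 65), with an adjusted p of 0.0512 to 0.0795. It was also lost with library totals in place of TMM (0.52, adjusted p = 0.160), without the filter (0.74, adjusted p = 0.0546), with the acinar score as a covariate (0.47, adjusted p = 0.284), with the 8 PX animals of BG 121 or less (0.78, adjusted p = 0.101) and without PX 58 and PX 62 (0.57, adjusted p = 0.149).

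The make-up of the high-affinity hexokinase transcripts was computed per kilobase of exon length from the summed level of Hk1, Hk2 and Hk3. Hk1 made up 67.2 ± 11.3% of it in PX (range 45.6 to 78.97%) and 92.6 ± 2.05% in sham (89.9 to 96.3%), and the groups did not overlap. Hk2 made up 13.2 ± 3.60% in PX (8.07 to 16.9%) and 6.26 ± 1.51% in sham (3.46 to 8.02%), with the lowest PX share just above the highest sham share. Hk3 made up 19.6 ± 9.82% in PX (7.25 to 37.5%) and 1.09 ± 1.01% in sham (0 to 3.34%), and all 11 PX shares were the higher ones. The summed level was 13.8 ± 8.24 CPM per kilobase in PX and 5.31 ± 3.60 in sham (SD over 11 and 10 libraries), and the groups overlapped, with sham 46 at 15.1. Without PX 58 and PX 62 the PX shares were 71.8 ± 5.44% for Hk1, 12.4 ± 3.50% for Hk2 and 15.8 ± 5.63% for Hk3, and the summed level was 10.4 ± 3.68 CPM per kilobase. All 3 genes are among the 7 called higher in PX. Shares of other gene sets were not computed, so no background stands beside these separations.

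**Figure D2:**
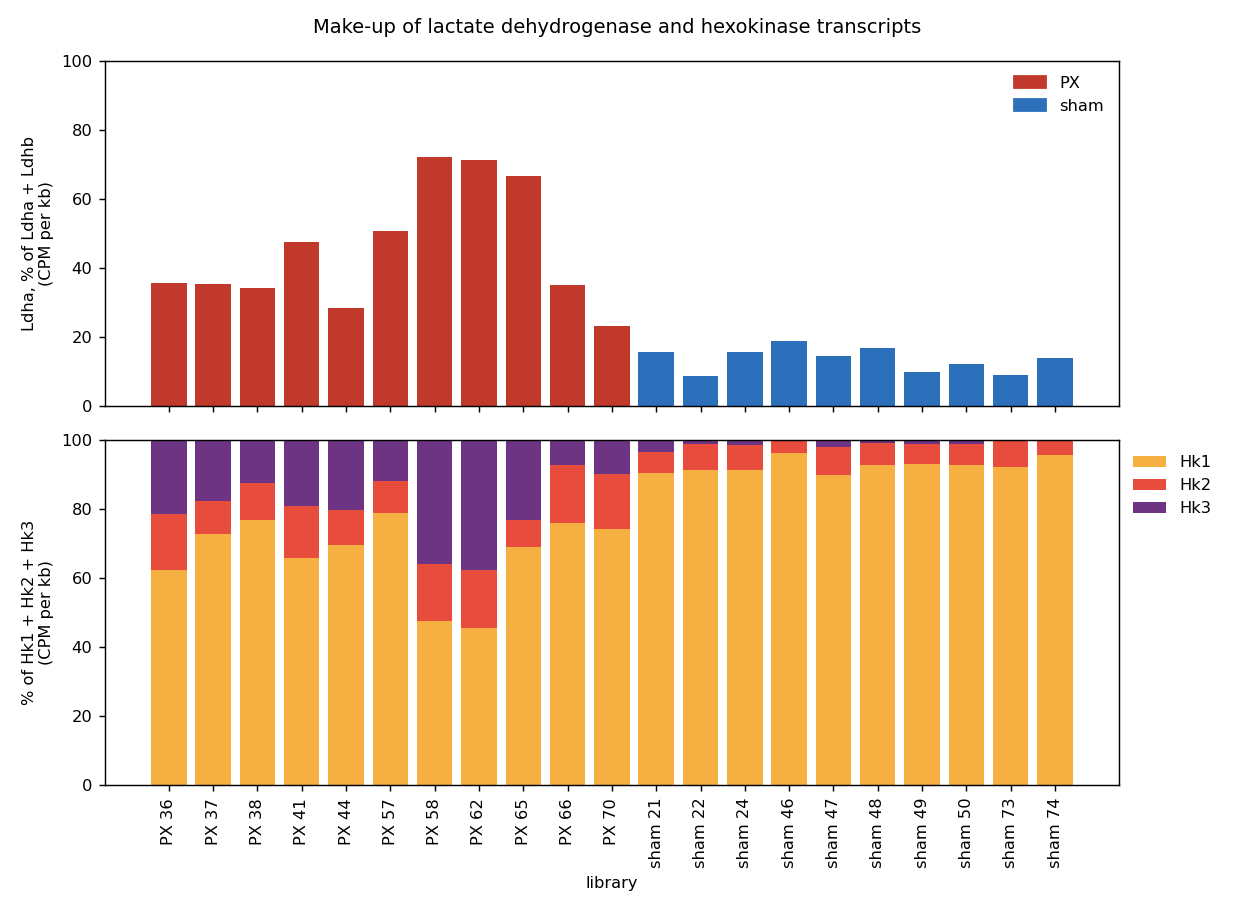
Share of Ldha in the summed Ldha and Ldhb level, and shares of the hexokinase genes Hk1, Hk2 and Hk3 in their summed level, in percent, per kilobase of exon length. Each bar is 1 library, with PX at the left and sham at the right. The 11 PX shares of Ldha run from 23.1 to 72.1%, above the sham shares of 8.71 to 18.9%.

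Pfkfb3 makes the sugar phosphate that activates phosphofructokinase, the step that commits glucose to glycolysis. It was at 1.21, 4.04 and 11.2 CPM in PX, against 0.777, 2.16 and 5.57 CPM in sham. The highest PX library was PX 65, and 5 of 11 PX libraries lay above every sham library. The log2 fold change was 1.23 ± 0.34, or 2.34-fold (edgeR, adjusted p = 0.00896). With the acinar score as a covariate it was 0.93 and missed the threshold (adjusted p = 0.107).

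Ranked per kilobase, the mean levels in PX were 14.1 for Ldha, 12.3 for Ldhb, 8.49 for Hk1, 3.35 for Hk3, 2.43 for Slc16a1, 1.98 for Slc16a3, 1.94 for Hk2 and 1.17 for Pfkfb3, in CPM per kilobase. In sham they were 13.6 for Ldhb, 4.95 for Hk1, 2.16 for Ldha, 0.742 for Slc16a1, 0.494 for Pfkfb3, 0.448 for Slc16a3, 0.303 for Hk2 and 0.0506 for Hk3. The order of the PX means rested on PX 58 and PX 62. Without them the means were 8.85 for Ldha, 11.8 for Ldhb, 7.38 for Hk1, 1.75 for Hk3, 2.08 for Slc16a1, 1.09 for Slc16a3, 1.30 for Hk2 and 1.01 for Pfkfb3, so that Ldhb stood above Ldha, Slc16a1 above Hk3 and Hk2 above Slc16a3. The medians over all 11 PX libraries gave that order too, at 12.9 for Ldhb and 8.48 for Ldha, 2.34 for Slc16a1 and 1.996 for Hk3, and 1.33 for Hk2 and 1.12 for Slc16a3. Over all 11 PX libraries the means of each of these pairs differed by less than the SD of either gene. In the authors' deposited table the log2 fold changes have the same signs for all 8 genes, at 2.30 for Ldha, 2.41 for Hk2 and 5.21 for Hk3, and Ldhb is the gene with an adjusted p above 0.05 there (0.412).

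Of 8 paralogs considered, 3 could be tested, of which 0 rose, 0 fell and 3 did not pass. At an unadjusted p below 0.05 there was 1, Ldhd, among 5514 of all 13136 genes. Its log2 fold change was -0.24 (edgeR, adjusted p = 0.0608). Pfkfb2, a relative of Pfkfb3, was at 307 CPM in PX and 356 CPM in sham, with a log2 fold change of -0.21 (edgeR, adjusted p = 0.240). Slc16a7, another lactate and pyruvate transporter, had a value of 0.78 (edgeR, adjusted p = 0.119).

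Of 20 tested genes that supply glucose or handle pyruvate and reducing equivalents, 6 rose, 3 fell and 11 did not pass the test, with a median log2 fold change of 0.16. Over all 13136 genes tested, 14.9% rose and 16.2% fell, with a median of -0.04. Gpd2, the mitochondrial arm of the glycerol phosphate shuttle, fell by 0.59 ± 0.11 on the log2 scale (edgeR, adjusted p = 0.000457). Slc2a3, a high-affinity glucose transporter, rose by 0.72 ± 0.18 (adjusted p = 0.00325), and Gpd1, the cytosolic arm of the same shuttle, rose by 0.90 ± 0.28 (adjusted p = 0.0168). Pdha1, a subunit of pyruvate dehydrogenase, rose by 0.40 ± 0.12 (adjusted p = 0.0167). Of 14 genes for the steps of glycolysis, 5 rose, 1 fell and 8 did not pass, with a median of 0.23. Pgk1 rose by 0.43, Eno1 by 0.44 and Pfkp, a phosphofructokinase subunit, by 0.57, while Pfkm, the muscle-type subunit, fell by 0.31. Of 19 other tested genes described as disallowed in beta cells, 14 rose, 0 fell and 5 did not pass, against 14.9% and 16.2% of all genes. Their median was 0.89. Pdgfra, which rose, is also 1 of the 13 mesenchymal markers, so the 2 lists are not separate. Among them Mgst1, a glutathione transferase of membranes, rose by 2.78, Cd302 by 2.27, Arhgdib, abundant in blood cells, by 2.21, and Rest, a repressor of neuronal genes, by 1.65.

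The 8 genes were then set against the macrophage score, the mean log2 CPM of the 15 tested macrophage markers, which was 4.29 ± 0.930 in PX and 1.73 ± 0.354 in sham (SD over 11 and 10 libraries; permutation test, adjusted p = 0.00012). Within the 11 PX libraries, 6 of 8 genes had a positive slope on the score, against 7.14% of 14054 genes tested, and none had a negative one, against 1.23%. The slope, in log2 units per unit of the score, was 1.24 ± 0.13 for Ldha (edgeR, adjusted p = 2.9e-05), 1.36 ± 0.17 for Hk3 (adjusted p = 0.0001) and 1.25 ± 0.16 for Slc16a3 (adjusted p = 0.000124). It was 0.97 ± 0.15 for Hk2, 0.86 ± 0.16 for Pfkfb3 and 0.53 ± 0.10 for Hk1. Slc16a1, at 0.49 ± 0.15 (adjusted p = 0.0562), and Ldhb, at 0.20 ± 0.10 (adjusted p = 0.243), did not pass. Voom called 7 of 8, against 1345 of 14054 genes, with Slc16a1 at 0.55 (adjusted p = 0.0225) as the further gene. Without PX 58 and PX 62, 2 of 8 genes passed, against 1.03% of 13445 genes with a positive and 0.104% with a negative slope. These were Ldha, at 1.18 (adjusted p = 0.0304), and Pfkfb3, at 1.24 (adjusted p = 0.0279).

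In sham, 7 of the genes could be tested, since Hk3 missed the filter, and 2 had a positive slope and 0 a negative one, against 6.02% and 3.97% of 13766 genes. They were Hk1, at 1.77 ± 0.27 (edgeR, adjusted p = 0.00161), and Ldha, at 1.16 ± 0.35 (adjusted p = 0.0499). Neither passed without sham 46, where none of the genes tested did, and the slopes were 0.74 for Hk1 (adjusted p = 0.843) and 2.26 for Ldha (adjusted p = 0.569). The Ldha call was lost in 9 of 10 fits that left out 1 sham library. Voom called 3 of 7 in sham, against 1492 of 13766 genes, with Pfkfb3 at 1.43 (adjusted p = 0.0398) as the further gene. The slopes of PX and sham could be compared for the same 7 genes, since Hk3, with 13 sham counts, has no usable slope in sham. A difference was found for 0 of 7, against 0.0609% of 13136 genes with a larger and 0.129% with a smaller slope in PX. At an unadjusted p below 0.05 there was 1 gene, Hk1, among 1913 of all 13136 genes, with a difference of -1.19 ± 0.29 (adjusted p = 0.0653). Voom called 0 of 7, and 38 of all genes. Without PX 44 the Hk1 difference was -1.29 (adjusted p = 0.0274), where 97 of 13075 genes had a larger and 132 a smaller slope in PX. Without sham 46 the Hk1 difference was -0.17 ± 0.86 (edgeR, adjusted p = 0.992), where 0 of 13197 genes had a larger and 0 a smaller slope. The size of the Hk1 difference thus rested on sham 46.

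**Figure D3:**
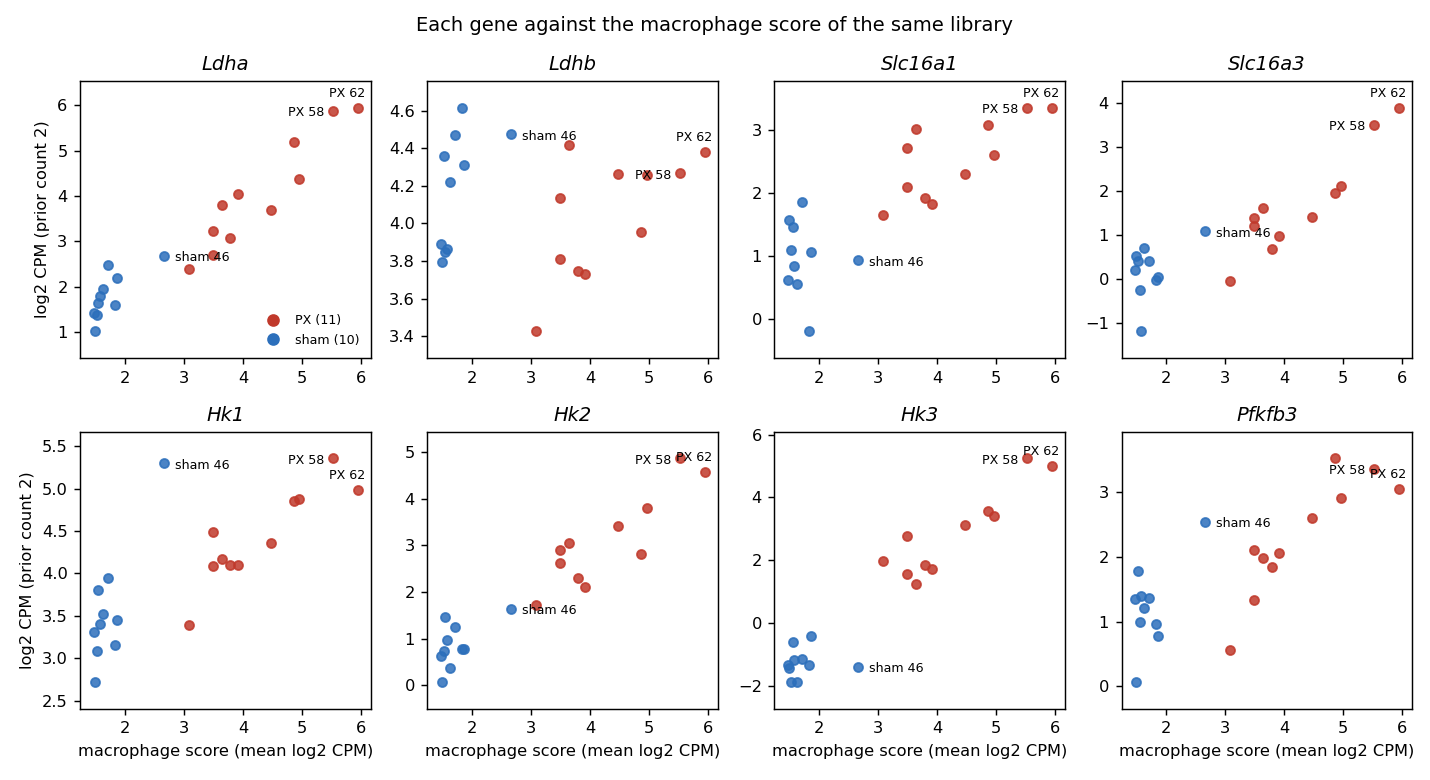
Level of each of the 8 genes, in log2 CPM, against the macrophage score of the same library, with PX and sham marked. Within PX the levels of Ldha, Slc16a1, Slc16a3, Hk1, Hk2 and Hk3 are highest in PX 58 and PX 62, which also have the highest scores.

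The group and the macrophage score were closely tied, with an R² of 0.778. With the score as a covariate in the fit, 0 of 8 genes were called between PX and sham, and of all 13136 genes 0.0305% were higher in PX and 0.00761% lower. At an unadjusted p below 0.05 there were 6 of 8 genes, against 1487 of all 13136 genes. Hk3 was at 2.01 ± 0.60 (edgeR, adjusted p = 0.217), Slc16a1 at 0.55 ± 0.49 (adjusted p = 0.724), and Hk2 near 0 (adjusted p = 0.999). The other 5 were negative, at -0.83 ± 0.36 for Ldha, -0.76 for Ldhb, -1.44 for Slc16a3, -1.03 for Hk1 and -1.24 for Pfkfb3. Mesenchymal markers moved with the groups as well (score 6.12 ± 0.637 in PX and 4.26 ± 0.532 in sham, R² 0.733). The part of either cell type in the higher levels of the 7 genes was not tested and cannot be told apart from the operation here.

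**Figure D4:**
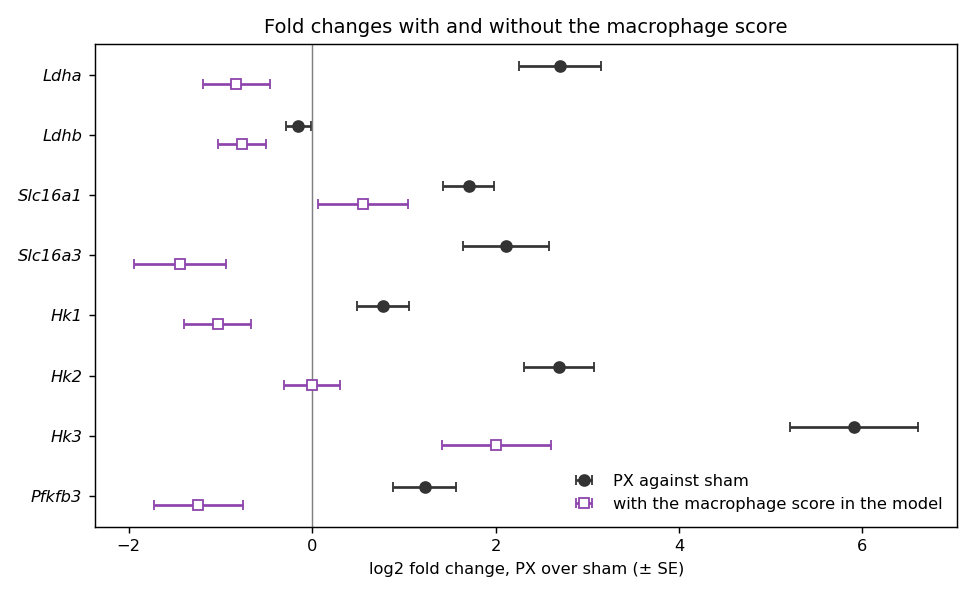
Log2 fold change, PX over sham, of each of the 8 genes with its standard error from edgeR (n = 11 and 10), without the macrophage score in the model (filled circles) and with it (open squares). Hk3 is at 5.91 without and at 2.01 with the score, and Ldha at 2.70 and -0.83.

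Levels were also expressed per 100 CPM of the summed macrophage markers, which themselves rose. Of these markers Lyz2 had the highest mean in PX, at 327 CPM, against 12.2 CPM in sham. Its log2 fold change was 4.74, against a median of 2.74 over the 15 tested markers, so it weighs heavily on the PX sums. The part of Lyz2 in the values below was not tested. Ldha stood at 2.11, 2.94 and 4.68 in PX (lowest, median and highest) and at 2.99, 4.57 and 8.80 in sham. Hk2 stood at 0.569, 1.97 and 2.93 in PX and at 1.33, 2.18 and 4.02 in sham. Ldhb and Hk1 were lower in all 11 PX libraries than in any sham library on this scale, as were 60.8% of all genes. Hk3 stood at 0.713, 1.47 and 2.70 in PX and at 0, 0.202 and 0.651 in sham, above every sham library in all 11 PX libraries, as were 0.0761% of all genes.

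The genes most alike in pattern were found by the Pearson correlation of log2 CPM over the 21 libraries after the group means were subtracted, among 8110 genes of at least 10 mean CPM. For Ldha they were S100a4 (r = 0.94), Anxa2 (0.93) and Coro1a (0.91). For Hk3 they were Prkcd (0.92), Cybb (0.92), which is 1 of the macrophage markers, and Ptafr (0.91). For Hk2 they were Lipa (0.92), Cd9 (0.91) and Pltp (0.90), for Hk1 Synj2, Cd82 and Capg (0.91 each), and for Slc16a3 Apoe (0.90), Ctsd (0.89) and Ifi30 (0.89). For Slc16a1 they were Slc1a5 (0.85), Aldh2 (0.84) and Hsd17b11 (0.82), for Pfkfb3 Aqp1 (0.88), Gda (0.85) and Slc12a4 (0.85), and for Ldhb Atp5pf (0.84), Actb (0.82) and Spint2 (0.81). Among the 8 genes themselves the correlation ran from 0.25 for Ldhb and Slc16a1 to 0.79 for Ldha and Slc16a3. With PX 58 and PX 62 left out, the correlations with the genes named above ran from 0.73 (Slc16a3 and Ifi30) to 0.93 (Hk1 and Capg), and those among the 8 genes from 0.01 (Ldhb and Hk3) to 0.77 (Ldha and Pfkfb3), over 19 libraries. These correlations are descriptions over libraries that share their depth and cell makeup.

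BG averaged 124 ± 23.1 in PX and 94.7 ± 6.001 in sham (SD over 11 and 10 libraries; permutation test, adjusted p = 0.00012), and the groups overlapped at 101 to 104. Ldha was at 36.4 CPM in PX 65 (BG 174), 20.4 in PX 41 (BG 156) and 16.1 in PX 57 (BG 140), but at 58.6 and 61.2 in PX 58 and PX 62 (BG 114 and 110). In PX 65, whose TMM factor was the lowest, 172 of 13187959 counts were Ldha, against 130 of 5486631 in PX 41. Across the 11 PX libraries, 0 of 8 genes had a slope on BG, and 0% of 14442 genes tested did in either direction. At an unadjusted p below 0.05 there were 0 of 8 genes and 1756 of all genes, and voom called 0 genes (1 of 8 and 1643 of all genes at an unadjusted p below 0.05). The slope per 10 units of BG was 0.18 ± 0.09 for Pfkfb3 (adjusted p = 0.472) and 0.07 ± 0.15 for Ldha (adjusted p = 0.887). Without PX 58 and PX 62, Ldha had a slope of 0.30 ± 0.05 (adjusted p = 0.0211) and was the 1 of 8 genes called, against 0.936% of 13780 genes with a positive and 0.203% with a negative slope. PX 65, with the highest BG, stayed in that fit. The libraries left out had the highest Ldha, at BG below the PX mean, so leaving them out raises the slope. In all 11 PX libraries the Ldha slope was 0.07 without and 0.02 ± 0.05 with the macrophage score as a covariate, neither called. No fit with that covariate was run without PX 58 and PX 62, so its part in the slope of 0.30 was not tested. In sham 0 of 7 genes had a slope on BG, against 0% of 13766 genes. At an unadjusted p below 0.05 there was 1 gene, Slc16a1, at -0.80 ± 0.31 per 10 units (unadjusted p = 0.022), among 120 of all genes, and voom called 0.

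**Figure D5:**
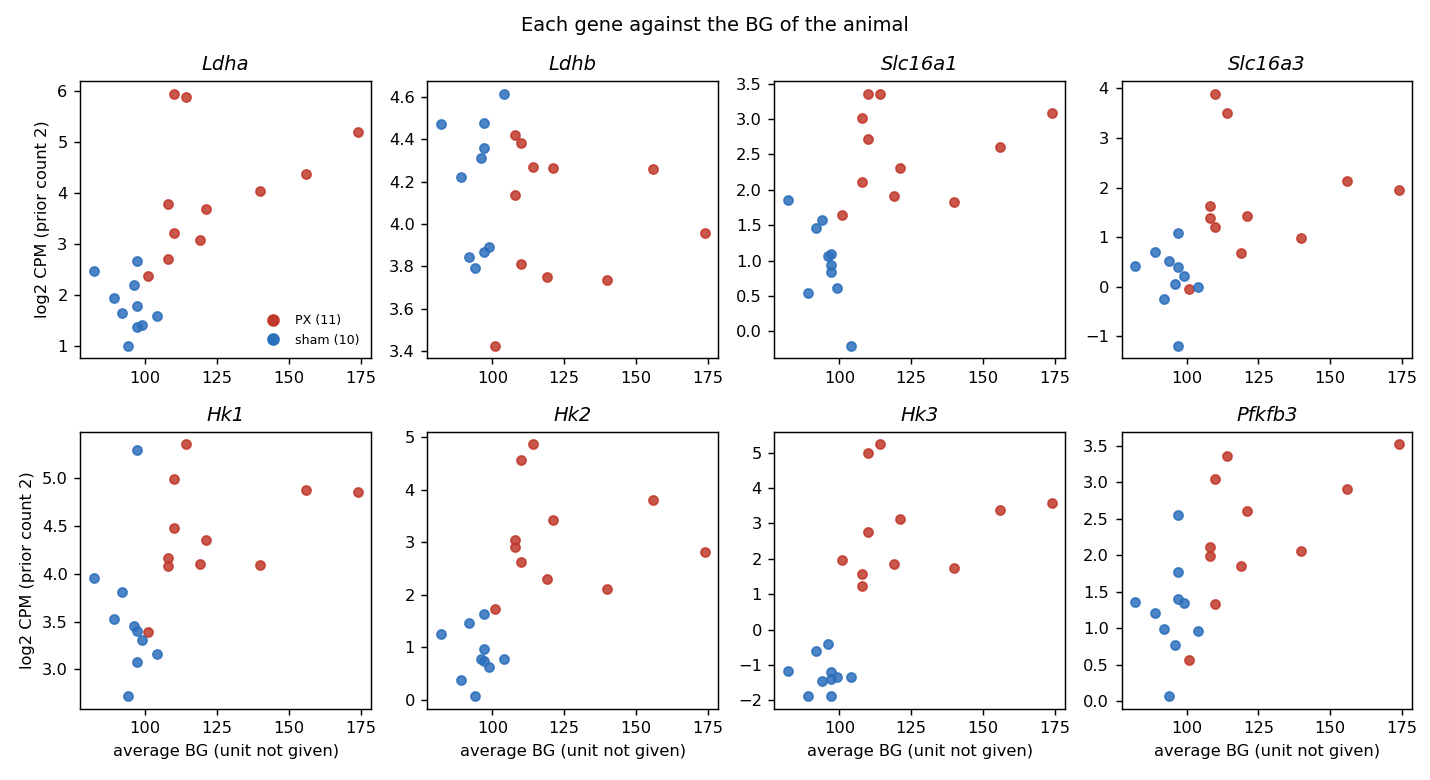
Level of each of the 8 genes, in log2 CPM, against the BG of the animal, whose unit is not stated. Each point is 1 library, PX in red and sham in blue. PX 58 and PX 62 have high Ldha, Hk2 and Hk3 at BG 114 and 110, below the 174 of PX 65.

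The animal numbers fall into stretches that each hold 1 group (PX 36 to 44 and 57 to 70, and sham 21 to 24, 46 to 50, and 73 and 74), so stretch and group cannot be told apart. Median Ldha was 9.02 CPM in PX 36 to 44 and 26.2 CPM in PX 57 to 70, where it was 14.8 CPM without PX 58 and PX 62. It was 3.20 CPM in sham 21 to 24, 2.86 CPM in sham 46 to 50 and 2.96 CPM in sham 73 and 74.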

How the data were processed

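The 8 genes and the gene lists were chosen with earlier results of these data known. FastQC, Subread, featureCounts and limma are named, without versions, per the submitters' processing notes. The genome build and the strand setting of the counting were not given in the sources used here, so a gene and an antisense gene that overlaps it may share reads. The labels' protocols name polyadenylated RNA and a directional kit. The counts were deposited by the authors as whole reads per gene name, without normalization, with a gene length that was used for levels per kilobase. In the authors' deposited table, per the file headers, each gene has a log2 fold change, a linear fold change and a p-value with its adjusted p.

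Robust quasi-likelihood models were fitted to the counts with edgeR 4.0.16 (R 4.3.3), after TMM scaling and a filter on low counts (filterByExpr, at least 10 counts and a total of at least 15), with 2-sided tests and Benjamini-Hochberg adjustment over all genes tested at 0.05. Log2 CPM used a prior count of 2. The interaction fit used all 21 libraries and each slope fit 1 group, with BG per 10 units. Group differences of library measures used 2-sided permutation tests with 100000 resamples in scipy 1.17.1. Only the animal number and the BG value in the titles say that the libraries came from separate animals. The p-values refer to the spread among libraries, each taken as 1 animal, and how much of it is technical is not known. The genes named besides the 8 were up to 4 of each list by lowest p and the 3 most alike genes of each member. Alternatives included DESeq2 1.42.0 size factors and voom of limma 3.58.1. The models were tested on simulated counts. A listed gene is not reported here and was left out of the lists.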

Additional observations from a re-analysis of the deposited data

Results flagged for a closer look

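Dixon's test for a value far from the others was applied to 23 measures of the 10 sham libraries, where chance alone marks about 1 in 20. It marked 4, and all 4 were in sham 46. The Hk1 level there was 5.30 log2 CPM, with the next sham library at 3.95. The summed level of Hk1, Hk2 and Hk3 was 15.1 CPM per kilobase, with the next at 6.11, and Hk1 made up 96.3% of that sum in sham 46. The macrophage score was 2.66, with the next at 1.86, and the mesenchymal score was 5.62, with the next at 4.64. The part of these scores in the Hk1 level was not tested. The measures are not independent, so the 4 marks do not count as 4 separate results.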

How the results depend on the processing

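No paired analysis was possible because the groups share no animal numbers. Between 5 and 7 of the 8 genes were called higher in PX when each library was left out. The count was 5 without PX 58 or without PX 62, where Slc16a3 missed the filter and Hk1 missed the threshold. Ldha, Slc16a1, Hk2 and Hk3 were called under every alternative other than the macrophage and mesenchymal covariates. With the macrophage score, the mesenchymal score or both as covariates, 0 of the 8 were called. Of all 13136 genes, 66 were then higher in PX and 18 lower with the mesenchymal score, and 4 higher and 2 lower with both. The values then reversed for Ldha (-0.83 with macrophage, -0.78 with both), Slc16a3 (-1.44, -0.80 with mesenchymal, -1.43 with both), Hk1 (-1.03, -0.93 and -0.99), Hk2 (-0.0028, -0.15 with both) and Pfkfb3 (-1.24, -0.89 and -1.24); the cause was not tested. Ldhb was at 0.019 without PX 44, PX 65 and sham 46. Library totals alone, which moved the median of all genes to -0.28, gave 0.14 for the endothelial score.

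Slopes on the macrophage score in PX were called for 2 genes without PX 58 and PX 62. Voom called 1 further gene in each group. In sham they were called for 1 gene with library totals, no filter or the acinar score, and for 0 to 2 when each library was left out. For the difference of slopes, 0 to 1 genes were called when each library was left out, and Ldha was at -0.025 with library totals. Slopes on BG changed sign for several genes. Pfkfb3 in PX (0.13 to 0.22) and Slc16a1 in sham (-0.97 to -0.57) kept theirs when each library was left out and under the other alternatives, with neither called. In PX, library totals gave -0.040 for Ldha, -0.096 for Slc16a1 and -0.023 for Hk1, voom gave 0.059 for Slc16a3 and 0.082 for Hk3, and the acinar score gave -0.015 for Ldha and -0.055 for Slc16a1. Without PX 65 and PX 41 they were -0.021 for Ldha and -0.22 for Slc16a1, and with the macrophage score -0.043 for Slc16a1. Without PX 58 and PX 62, 1 gene was called, and the slopes were 0.0077 for Ldhb, 0.17 for Slc16a3, 0.099 for Hk2 and 0.23 for Hk3. In sham, library totals gave 0.014 for Hk1, and the acinar score gave -0.035 for Ldhb, 0.0055 for Slc16a3, 0.23 for Hk1 and 0.067 for Hk2. Leaving out 1 library at a time moved the BG slope in PX from -0.14 to 0.0044 for Hk2, -0.10 to 0.048 for Hk3, -0.017 to 0.17 for Ldha, -0.040 to 0.013 for Ldhb, -0.070 to 0.041 for Slc16a1 and -0.15 to 0.035 for Slc16a3. In sham it moved from -0.39 to 0.099 for Hk1, -0.26 to 0.093 for Hk2, -0.15 to 0.33 for Ldhb and -0.038 to 0.37 for Pfkfb3. The macrophage slope of Pfkfb3 in sham moved from -0.73 to 1.47, and the difference of slopes from -0.064 to 0.35 for Hk2, -2.79 to 1.42 for Hk3, -0.97 to 0.27 for Ldha and -0.59 to 1.63 for Pfkfb3. Low counts limit Hk3 in sham and Slc16a3 in both groups.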
